A study of Mus musculus with 2 samples.

Results

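The Th2 cytokine locus is a cluster of genes on mouse chromosome 11 that holds Il4, Il13 and Il5, the signature cytokine genes of T helper 2 (Th2) cells, with the DNA repair gene Rad50 lying between Il13 and Il5. Kif3a flanks the cluster beside Il4 and Irf1 flanks it beside Il5, and farther along the chromosome lie Csf2 and Il3. These 8 genes were taken by symbol, as every probe set whose only gene symbol in the platform annotation was one of them. The array table held 12 such probe sets among 45037, and 8 such genes among 18193 named ones. Kif3a had 4 probe sets, Rad50 had 2 and each of the other 6 genes had 1.

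The samples were 2 sorted fractions of memory Th2 cells, IL-5+ and IL-5-, with 1 Affymetrix array each. Both fractions came from splenic CD4 T cells of DO11.10 mice, which carry a transgenic T cell receptor for an ovalbumin (OVA) peptide, on the BALB/c background. The cells were stimulated with that peptide in the presence of 25 U/ml IL-2 and 100 U/ml IL-4 for 6 days, then rested for 30 days in athymic BALB/c nu/nu recipients, which make few T cells of their own, before the spleens were taken and the fractions sorted. Both fractions thus shared the transgenic receptor and the culture conditions. Animal age, the number of donors and recipients, any pooling of RNA and the way IL-5 was made visible for sorting are not stated in the labels. With 1 array per group no value has a replicate error and no test was possible, so each ratio describes these 2 RNA samples. The spread that could be measured was the disagreement among probe sets that share a gene. Its SD on the log2 ratio was 0.55 at mean signals from 36.3 to 112.8, 0.37 up to 500, 0.21 up to 2000 and 0.13 above that, and it leaves out variation between cell preparations.

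In the mouse, Il4, Il13 and Il5 are opened together when a naive CD4 T cell becomes a Th2 cell. The transcription factor GATA3 binds regulatory DNA across the cluster, STAT6 relays the IL-4 signal, and a locus control region inside the Rad50 gene contacts the cytokine promoters. NFAT proteins, activated by the T cell receptor, drive transcription of the cytokine genes when the cell meets antigen. IL-4 drives Th2 differentiation and class switching to IgE, IL-13 acts on epithelium and mucus production, and IL-5 makes eosinophils mature and survive. Csf2 encodes GM-CSF and Il3 encodes interleukin-3, both growth factors for myeloid cells, and their genes are induced in many activated T cells and not in Th2 cells alone.

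The 250 bases before the most upstream RefSeq start (build GRCm38.p6) are shown for the 5 cytokine genes, the products the cluster is known for, and for Irf1, whose ratio ran the other way. All are written 5′ to 3′ on the strand of the gene. Capitals mark the GATA core (GATA, or TATC on the other strand) in Il13 (chr11:53634703-53634952, minus strand), Il5 (chr11:53720544-53720793, plus strand), Csf2 (chr11:54249900-54250149, minus strand) and Il3 (chr11:54267280-54267529, minus strand). In Il4 (chr11:53618666-53618915, minus strand), where no GATA core was found, they mark the NFAT core (GGAAA, or TTTCC on the other strand), and in Irf1 (chr11:53769764-53770013, plus strand) a STAT-type palindrome (TTCNNNGAA).
Il4: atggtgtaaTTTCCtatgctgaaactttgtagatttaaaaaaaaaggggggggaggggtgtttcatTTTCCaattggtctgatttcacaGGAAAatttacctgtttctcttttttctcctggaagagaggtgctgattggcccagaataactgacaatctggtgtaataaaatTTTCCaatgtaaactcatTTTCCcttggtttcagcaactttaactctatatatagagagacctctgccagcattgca
Il13: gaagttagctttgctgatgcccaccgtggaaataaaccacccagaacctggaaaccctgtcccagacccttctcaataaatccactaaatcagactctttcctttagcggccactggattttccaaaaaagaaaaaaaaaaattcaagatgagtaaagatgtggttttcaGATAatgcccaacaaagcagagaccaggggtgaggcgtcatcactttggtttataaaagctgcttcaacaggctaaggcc
Il5: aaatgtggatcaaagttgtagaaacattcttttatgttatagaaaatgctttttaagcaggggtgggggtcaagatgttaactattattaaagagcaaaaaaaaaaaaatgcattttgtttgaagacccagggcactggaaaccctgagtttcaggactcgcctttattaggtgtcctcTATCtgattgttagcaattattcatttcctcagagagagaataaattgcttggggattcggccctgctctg
Csf2: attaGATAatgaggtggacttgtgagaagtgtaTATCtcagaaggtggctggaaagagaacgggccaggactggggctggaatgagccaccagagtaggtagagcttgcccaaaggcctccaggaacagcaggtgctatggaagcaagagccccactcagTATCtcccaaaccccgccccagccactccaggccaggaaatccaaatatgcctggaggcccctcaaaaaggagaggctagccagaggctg
Il3: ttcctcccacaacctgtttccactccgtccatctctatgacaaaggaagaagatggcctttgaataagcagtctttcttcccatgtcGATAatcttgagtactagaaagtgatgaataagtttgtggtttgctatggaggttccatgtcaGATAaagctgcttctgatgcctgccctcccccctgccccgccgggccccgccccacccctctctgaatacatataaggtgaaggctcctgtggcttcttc
Irf1: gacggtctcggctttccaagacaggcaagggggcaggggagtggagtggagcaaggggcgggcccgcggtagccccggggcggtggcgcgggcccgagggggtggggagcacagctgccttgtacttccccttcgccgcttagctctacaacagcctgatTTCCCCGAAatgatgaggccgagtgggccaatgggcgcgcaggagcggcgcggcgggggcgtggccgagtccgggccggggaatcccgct

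A RefSeq promoter sequence was matched for 7 of the 8 genes, Rad50 being named only. The GATA core stood in 4 of these 7, at positions -80 to -77 in Il13 and -71 to -68 in Il5, counted back from the start, 3 times in Csf2 and 2 times in Il3. It was found in 50.3% of 17492 protein-coding promoters of the same length, searched on both strands. Each of the 4 genes also held 1 longer form of 6 letters, a core with A or T before it and A or G after it, searched on both strands. This form overlaps a core and stood in 24.3% of promoters. It was added after the shorter core had been searched. The NFAT core was present in all 7, against 54.9% of promoters, with 5 matches in Il4, 4 in Il13, 2 each in Il5, Csf2 and Irf1 and 1 each in Il3 and Kif3a. A STAT-type palindrome with 3 bases between its arms was found in Irf1 only, from -90 to -82, overlapping an NFAT core, against 6.65% of promoters. The STAT-type palindrome with 4 bases between its arms was found in Il4 only, from -167 to -158, also overlapping an NFAT core, against 5.40% of promoters. The IRF element (a pair of GAAA cores) was found in Il4 only, from -190 to -181, overlapping another NFAT core, against 3.04% of promoters. Neither the T-box element (AGGTGTGA) nor the AP-1 element (TGANTCA) was found in these windows, against 1.03% and 6.18% of promoters. A match is a stretch of letters and not a site shown to be bound.

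The Th2 cytokine genes of the cluster were higher in IL-5+ cells, and by unequal amounts. In bulk RNA, fewer producing cells and less RNA per cell cannot be told apart. Signals are linear intensities, and a floor of 36.3, which 40% of all signals stay below, replaced any lower value before the ratio was taken. Il5, the sorting marker, had a signal of 37085 in IL-5+ cells, against 67.4 in IL-5- cells. That 550-fold difference checks the sort and is not a finding.

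Il13 had a signal of 28724 in IL-5+ cells and 4639 in IL-5- cells. It was 6.19-fold higher in IL-5+ cells (log2 ratio 2.63), the 14th highest among the 13145 named genes above the floor on at least 1 array. Il4 had a signal of 32261 in IL-5+ cells, against 9637 in IL-5- cells, a 3.35-fold difference (log2 ratio 1.74), the 68th highest. Both genes were bright in the IL-5- cells too, at 9.19% (Il13) and 19.1% (Il4) of the highest signal there, where Il5 stood at 0.134%. The ratio of Il13 exceeded that of Il4 by 0.89 on the log2 scale. Probe sets of 1 gene at such signals differ with an SD of 0.13. That SD describes single ratios on these 2 arrays and gives no error for a difference between 2 genes.

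Csf2, which encodes GM-CSF, had signals of 32111 in IL-5+ cells and 12066 in IL-5- cells, 2.66-fold higher (log2 ratio 1.41). Il3, the gene next to it, had a signal of 47716 in IL-5+ cells, against 35499.5 in IL-5- cells, a difference of 1.34-fold (log2 ratio 0.43). The ratio of Csf2 exceeded that of its neighbour Il3 by 0.99 on the log2 scale. Il3 reached 91.8% of the highest signal measured in IL-5+ cells and 70.3% of the highest in IL-5- cells. Array signals are compressed near the top of their range, and the part of this in the small Il3 ratio was not tested.

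**Figure D1:**
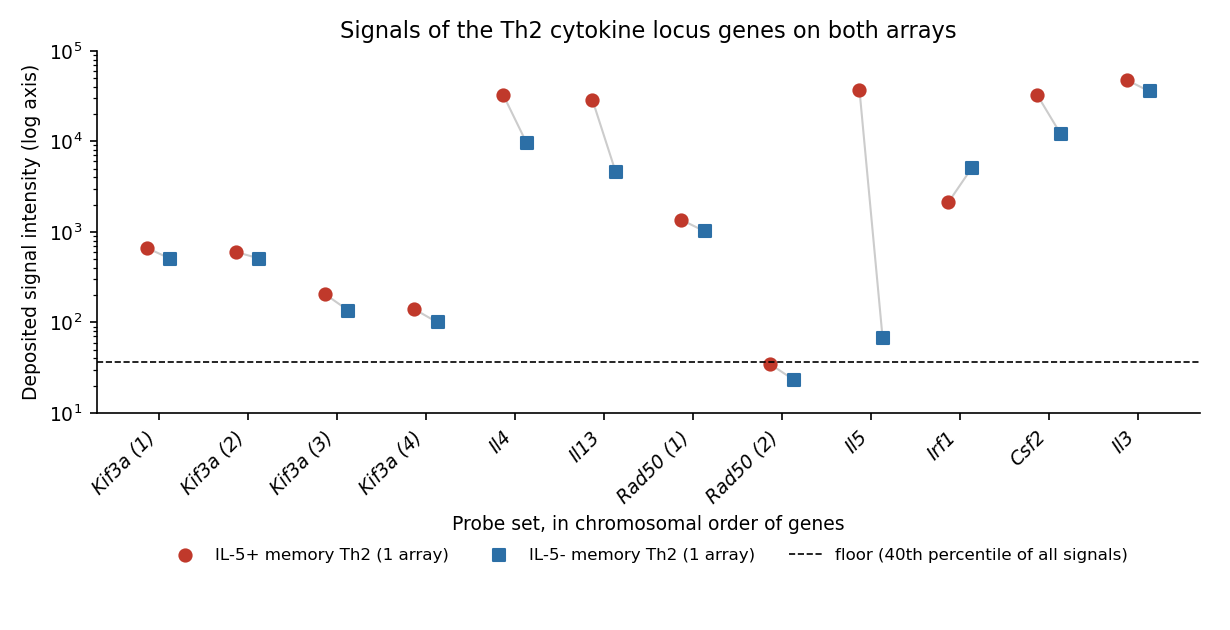
Deposited signal intensity (log axis) of the 12 probe sets of the 8 genes, in chromosomal order, with IL-5+ cells as red circles left of IL-5- cells as blue squares, 1 array each. Il5 spans 37085 to 67.4, Il4, Il13 and Csf2 differ at bright signals on both arrays, and Irf1 is the gene whose IL-5- signal is the higher one.

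Counted at a 2-fold difference, 4 of the 8 genes (50%) were higher in IL-5+ cells and 1 was lower, where 2.85% of all named genes above the floor were higher and 4.0% lower. Without Il5, 3 of 7 (42.9%) passed 2-fold upwards. The median log2 ratio was 0.92 over the 8 genes and 0.43 without Il5, against -0.05 over all named genes. The genes were chosen by their place in the genome, but with earlier results of these arrays known, so these counts describe the cluster and are no independent evidence on it. Of the 5 cytokine genes, 4 passed 2-fold, among them Il5, by which the cells were sorted.

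The most brightly measured genes on these arrays showed little spread. A high mean signal on both arrays itself limits the ratio a gene can reach, since no signal exceeded 51949.9. The part of this limit, and of compression, in the small spread was not tested. Among the 397 other named genes with a mean signal of 10000 or more, 90% had log2 ratios between -0.20 and 0.37 (5th to 95th percentile). None of those 397 had a ratio as high as that of Il4, Il13 or Csf2, and 16 had one as high as that of Il3. Among the 140 other genes at 20000 or more, those with a ratio as high as that of Il3 were Il2, Manf and Rap1b. Both signal limits were chosen after the values were seen, and Lgals1 (log2 ratio 1.45) and Tnfsf11 (1.56), which lie just under 10000, exceed Csf2. Of all 2411 genes with a mean signal of 2000 or more, 2 had a ratio as high as that of Il13, 7 as that of Il4, 16 as that of Csf2 and 194 as that of Il3, each count including the gene itself.

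**Figure D2:**
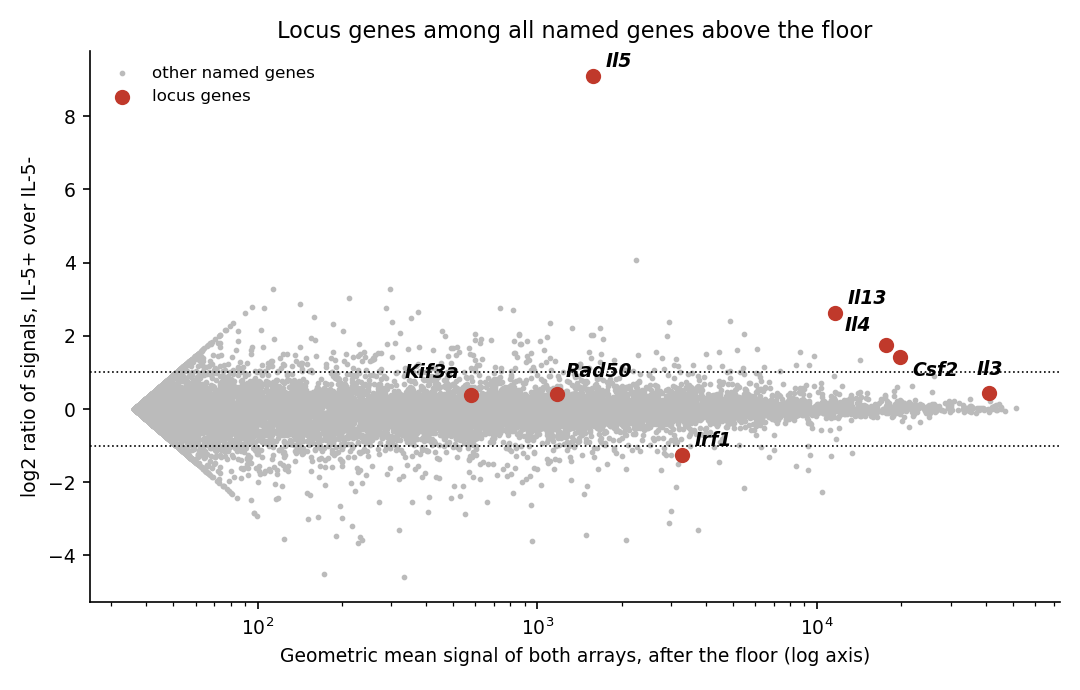
Log2 ratio (IL-5+ over IL-5- signal) against the geometric mean signal of both arrays (log axis) for all 13145 named genes above the floor on at least 1 array, with the 8 locus genes in red and dotted lines at 2-fold. Il13 (2.63), Il4 (1.74) and Csf2 (1.41) lie above most genes at their signal, with the proenkephalin gene Penk (1.35) close to Csf2. Il3 (0.43) lies at the far right, near the top of the measurable range.

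The genes whose pair of signals lay nearest to those of the cytokine genes, by Euclidean distance between log2 signals over the 2 arrays, were found among genes above the floor on both. Il4 and Csf2 were nearest to each other of all such genes (distance 0.32). Penk, the proenkephalin gene, followed for Il4 at 0.52 (22636.5 in IL-5+ and 8895 in IL-5- cells). For Il13 the nearest were Lgals1 (galectin-1) at 0.91, Tnfsf11 (RANKL) at 0.95 and Penk at 1.0. Il3 was nearest to Ccl1, a chemokine gene of Th2 cells, at 0.15 (44925 and 38548), and then to the ribosomal protein genes Rps3a1 (0.24) and Rps7 (0.26). Hsp90b1, a chaperone of the endoplasmic reticulum, also came near to Il4 (0.84) and to Csf2 (0.58), as did Manf, encoding another protein of that compartment, to Csf2 (0.60). Signals of different probe sets also depend on how well each probe binds, so these distances describe likeness on 2 arrays and nothing more.

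Rad50 and Kif3a, which are expressed in most cell types and lie within and beside the cytokine cluster, differed by less than 2-fold between the fractions. Rad50 encodes a subunit of the MRE11-RAD50-NBN complex that binds DNA double-strand breaks. Its brighter probe set gave signals of 1357 in IL-5+ cells and 1016 in IL-5- cells, a log2 ratio of 0.42, while the other stayed below the floor in both fractions (34.5 and 23.3). The ratio of Rad50 was thus lower than that of Il13 by 2.21 and than that of Il4 by 1.33 on the log2 scale, although Rad50 lies between Il13 and Il5.

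Kif3a encodes a motor subunit of kinesin-2, the transport complex of cilia and axons. Its 4 probe sets had signals of 662, 598, 204 and 140.1 in IL-5+ cells, against 504, 508, 135 and 99.9 in IL-5- cells. All 4 were slightly higher in IL-5+ cells, with log2 ratios from 0.24 to 0.59 (mean 0.43 ± 0.15, SD over 4 probe sets of the same 2 RNA samples). The ratios of Rad50 (0.42) and of the brightest Kif3a probe set (0.39) exceeded the probe-set SD of 0.21 at their signal. That SD leaves out variation between cell preparations and gives no error for either ratio. Of the 3402 genes with a mean signal from 500 to 2000, 8.55% (Rad50) and 9.44% (Kif3a) had a ratio at least as high.

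By the brightest probe set of each gene, the partners of both proteins were likewise within 2-fold, apart from 1 gene at the limit. The counts and medians of the lists below include Rad50 and Kif3a themselves. Of 7 measured genes of the RAD50 complex and the DNA damage kinase pathway around it, 1 was 2-fold higher, against 2.85% of all genes, and the median log2 ratio was -0.14. That gene was Rint1, which encodes a RAD50-interacting protein (387 in IL-5+ and 193 in IL-5- cells, log2 ratio 1.0), and its other probe set ran the other way (-0.63). Nbn, another subunit of the complex, stood at -0.49, Brca1 at -0.47 and the damage kinase gene Atm at -0.39. The 4 probe sets of Brca1 ranged from -1.20 to -0.17. The 5 kinesin-2 genes had a median of -0.16 and none passed 2-fold, against 2.85% higher and 4.0% lower of all genes. Kif3b, the motor partner of Kif3a, stood at -0.72, Kif3c at 0.28 and Kif17 at -0.19.

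Irf1 was the one gene of the cluster that was lower in IL-5+ cells. It encodes interferon regulatory factor 1, which is induced by interferons and which in mice supports T helper 1 responses. Its signals were 2129.7 in IL-5+ cells and 5049.9 in IL-5- cells, 2.37-fold lower in IL-5+ cells (log2 ratio -1.25). Of the 2411 genes with a mean signal of 2000 or more, 20 (0.830%), counting Irf1, had a ratio as low. Irf1 is the gene next to Il5 on the chromosome, and its ratio was 1.66 below that of Rad50 on the other side of Il5. It rests on a single probe set of the kind that may match more than 1 transcript of a gene.

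Other genes of the family had ratios below 0 as well. The counts and the median below include Irf1 itself. The list had 10 measured genes encoding interferon regulatory factors or their binding proteins. Of these, 3 were at least 2-fold lower and none was 2-fold higher, against 4.0% lower and 2.85% higher of all genes. Of the 10, 9 were below 0, and the median was -0.56. Beside Irf1, those at least 2-fold lower were Irf2 (414 in IL-5+ and 880.3 in IL-5- cells, log2 ratio -1.09) and Irf8 (1958 and 4079, -1.06, with its other probe set at -0.77). Irf7 stood at -0.64, Irf9 at -0.60 and Irf4, which Th2 cells need, at -0.52, while Irf5 (0.41) was the member above 0.

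Among genes known to be activated by IRF1, those past 2-fold were lower in IL-5+ cells. Of 15 measured, 4 were at least 2-fold lower and none was 2-fold higher, against 4.0% lower and 2.85% higher of all genes. Of the 15, 11 were below 0, and the median was -0.81. Gbp2, a GTPase of cell-autonomous immunity, had the lowest ratio, with 1005.5 in IL-5+ and 8735 in IL-5- cells (log2 ratio -3.12), and its other probe set gave -3.01. The immunoproteasome gene Psmb9 (2698 and 7349, -1.45), the GTPase gene Ifi47 (6077 and 14634, -1.27) and Tapbp, which loads MHC class I molecules (4398 and 9005, -1.03), were the others. Tap2 (-0.96), Socs1 (-0.92), Tap1 (-0.89) and Bst2 (-0.81) stood short of 2-fold. Above 0 were Casp1 (0.60), Cdkn1a (0.52), Il12rb1 (0.24) and B2m (0.02). These genes answer to other interferon-activated factors too, and the list was written with results of these arrays known, so it is no independent evidence on Irf1.

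The protein-coding genes around the 8 were set beside them, to see how far differences ran along the chromosome. In RefSeq gene order, 5 others lie between the outermost members, and 12 beyond each end were added. Of these 29 genes, 6 were under the floor on both arrays, and of the 23 measured, 3 (13%) were higher by 2-fold or more and none was lower, against 2.85% higher and 4.0% lower of all genes, with a median log2 ratio of 0.11. The 3 were Acsl6, P4ha2 and Gdf9.

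Acsl6, which encodes a long-chain acyl-CoA synthetase and lies next to Il3, had signals of 3324 in IL-5+ cells and 890.1 in IL-5- cells, 3.73-fold higher (log2 ratio 1.90). Its second probe set gave 1.79, from 310.6 and 89.9. The ratio of Acsl6 was thus higher than those of Il3, beside it, and of Csf2, on the far side of Il3. P4ha2, a collagen prolyl 4-hydroxylase gene next to Csf2, had signals of 228 and 81.4 (2.80-fold higher, log2 ratio 1.48). That ratio rests on 1 probe set and was 1.01 with the floor raised to 112.8. Gdf9, a growth factor gene known from the oocyte, was dim (119 and 43.9, log2 ratio 1.44), and its ratio was 0.08 with the floor raised to 112.8. The immediate neighbours at the other borders were within 2-fold, Septin8 beside Kif3a at 0.48, though its 3 probe sets ran from -0.40 to 0.48, and the carnitine transporter gene Slc22a5 beside Irf1 at -0.33, with its second probe set at 0.41.

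**Figure D3:**
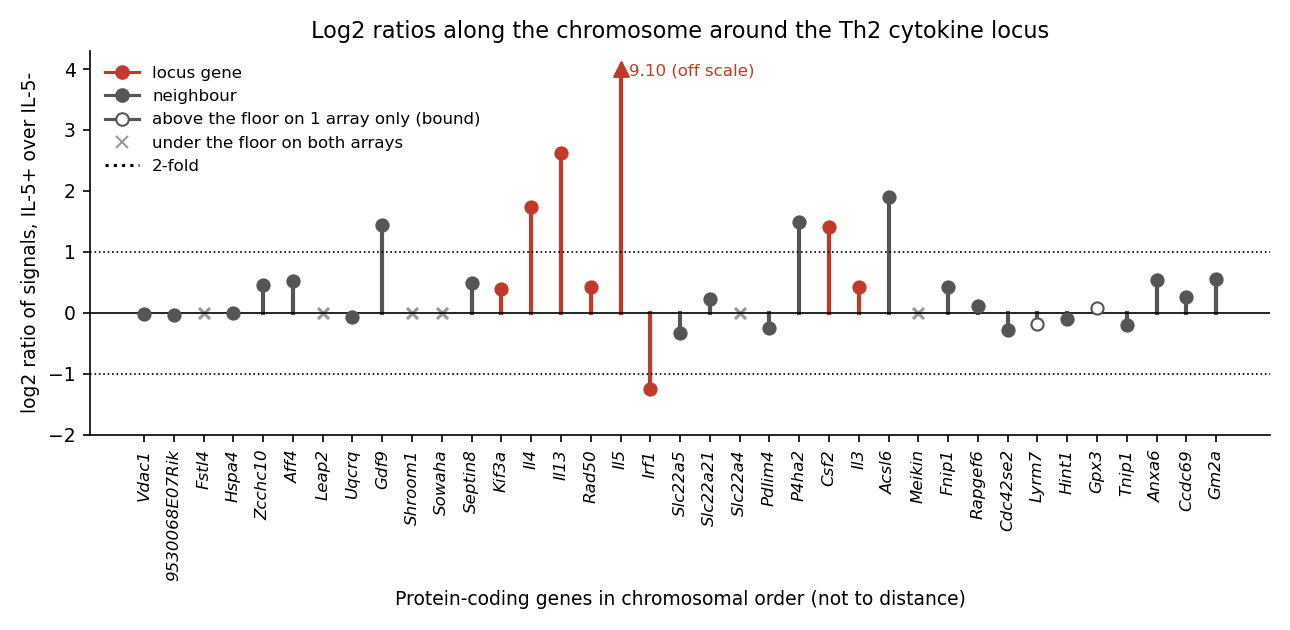
Log2 ratio (IL-5+ over IL-5- signal) for 37 protein-coding genes in chromosomal order (equal spacing, not distance), locus genes in red and neighbours in grey, with open circles for bounds, crosses for genes under the floor on both arrays and dotted lines at 2-fold. High ratios alternate with ratios under 2-fold, as at Rad50 (0.42) between Il13 (2.63) and Il5 (9.10, drawn off scale), and Irf1 (-1.25) points down beside Il5.

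Receptors for the cytokines of the locus were mostly dim in these cells. Of 8 genes with a named probe set, 2 were under the floor on both arrays, Il13ra1 and Csf2rb2. Of the 6 measured, Il4ra was at least 2-fold lower and none was 2-fold higher, against 4.0% lower and 2.85% higher of all genes, with a median of 0.00. Il4ra, the signalling chain shared by the IL-4 and IL-13 receptors, had signals of 542.5 in IL-5+ and 1157 in IL-5- cells (log2 ratio -1.09), so the receptor gene was lower where the ligand genes were higher. Its 3 probe sets ranged from -1.12 to -0.33. Il3ra was above the floor in IL-5+ cells alone (71.8, against 7.80), at least 1.98-fold higher, and Csf2rb in IL-5- cells alone (21.5 in IL-5+ and 66.0 in IL-5- cells), at least 1.82-fold lower. Csf2ra (0.07) and Il13ra2 (0.03) were nearly even, though the other probe set of Csf2ra gave -0.68.

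Genes known to regulate the locus mostly differed by less than 2-fold between the fractions. Of 35 measured, 4 were at least 2-fold lower and none was 2-fold higher, against 4.0% lower and 2.85% higher of all genes. The other 31 were within 2-fold, and the median was -0.14. Tbx21, which encodes T-bet, the T helper 1 factor that opposes GATA3, had signals of 1053 in IL-5+ and 2971 in IL-5- cells (log2 ratio -1.50). Eomes, a related T-box factor, stood at -1.20, with its other probe set at -1.52. Maf, an Il4 activator, stood at -1.01 (its probe sets spanned -1.88 to -0.35), and Ecm1 at -1.0, and both came under 2-fold with each of 3 other scalings and with an added constant. Gata3 itself had a signal of 5968 in IL-5+ cells, against 3569.9 in IL-5- cells (0.74), and Stat6 3561 and 3441 (0.05). Nfatc2 stood at -0.85, Runx1 at 0.78 and Bcl6 at 0.63, but probe sets of Nfatc2 and of Runx1 had both signs.

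**Figure D4:**
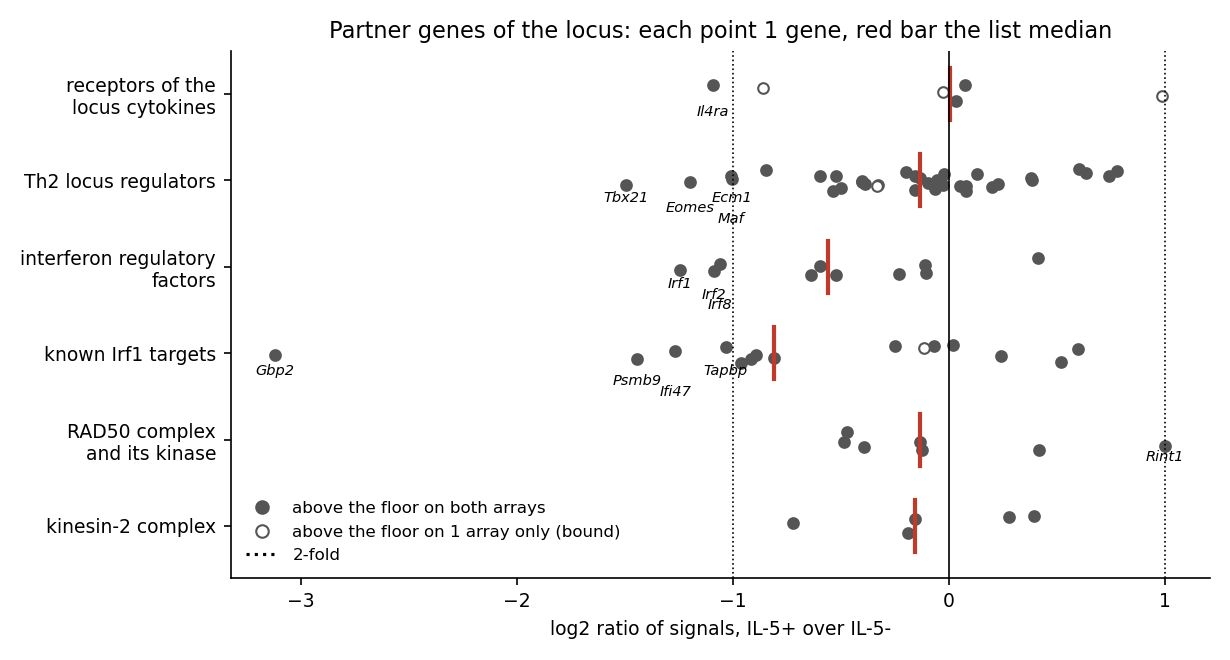
Log2 ratio (IL-5+ over IL-5- signal) for measured genes of 6 lists of locus partners, 1 point per gene (open where above the floor on 1 array only), with the list median as a red bar, dotted lines at 2-fold and names for genes past 2-fold. Genes past 2-fold lie on the lower side, except for Rint1 at 1.0 in the RAD50 complex, and the kinesin-2 list has none. The medians run from 0.00 for receptors to -0.81 for known Irf1 targets. Irf1, Rad50 and Kif3a are points in the lists of their own family or complex.

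The fractions were checked for other cells that make these cytokines. Of 12 CD4 T cell markers, 10 had a named probe set and all 10 were above the floor on both arrays, with summed signals of 59132.5 in IL-5+ and 74991.8 in IL-5- cells. Cd3e (1952 and 2474), Cd3d (9115.5 and 13553) and Cd4 (454.5 and 471.0) were present in both. Of these 10 markers, 9 had ratios below 0 and 1 above it (median log2 ratio -0.25), the lowest being Cd247 (-0.81). Of 9 basophil and mast cell markers with a probe set, 5 were under the floor on both arrays, among them the defining Fcer1a (2.20 and 12.5), Ms4a2 and Mcpt8, and the summed signals were 559.7 and 276.4. Hdc, the histamine-forming enzyme gene, was the member past 2-fold (353 against 10.4, at least 9.72-fold higher, log2 ratio 3.28). Its second probe set gave 1.69, and the ratio was 1.65 with the floor raised to 112.8. Without Hdc the basophil and mast cell markers summed to 206.9 in IL-5+ and 266.0 in IL-5- cells. All 5 eosinophil markers other than Il5ra lay below the floor in both fractions. Of the B cell markers, Ighm (64.4 in IL-5+ and 813.4 in IL-5- cells) was lower, though its 5 measured probe sets ranged from -3.66 to 0.16, and its ratio was -0.64 with the median of probe sets. Pax5 (6.40 and 70.2) and Blk (8.70 and 48.0) were above the floor in IL-5- cells alone. Cd22 (38.6 and 21.9) was above it in IL-5+ cells alone, and Ms4a1 (60.7 and 62.1) was nearly even. Cd79a and Cd79b lay below the floor in both fractions. The B cell markers summed to 205.5 in IL-5+ and 1058.0 in IL-5- cells, and to 141.1 and 244.6 without Ighm. In the macrophage and monocyte, NK and CD8 T cell, and group 2 innate lymphoid cell lists, no marker reached 2-fold with the floor applied. Of all genes, 2.85% were higher and 4.0% lower. The list medians were -0.22, 0.75 and 0.21 over 4, 4 and 3 measured genes. Some of these ratios are bounds, as for Fcer1g (61.4 in IL-5+ and 4.7 in IL-5- cells) and Il17rb (18.4 and 65.4). Il1rl1 and Areg, of the innate lymphoid cell list, had no named probe set. The NK and CD8 T cell markers summed to 946.2 in IL-5+ and 568.0 in IL-5- cells. The part of any such cells in the cytokine ratios was not tested.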

How the data were processed

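RNA from 2 samples, 1 IL-5+ and 1 IL-5-, was labelled with biotin and hybridised to Affymetrix arrays. Each probe set has 1 intensity value per array in the deposited table, and GCOS (Affymetrix array software) is named in the submitters' processing notes. Its version and settings are not stated there. Intensity values as deposited by the authors were linear, ranging from 0.1 to 51949.9, with trimmed means (without the lowest and highest 2%) of 495 and 496, as scaling to a common target would give, so each ratio is relative to the rest of its array. The number of arrays limits the precision.

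Of 45037 probe sets, 34945 had 1 gene symbol, 932 several and 9160 none. RefSeq (GRCm38.p6) gave gene order and promoters; the deposited values name no build. Of several probe sets, the one brightest on average (log2 scale) stood for the gene. Signals under the floor (36.3) were set to it, and 5048 genes under it on both arrays have no ratio. No test was possible, and a gene counted as higher or lower at 2-fold. Ratio and counting steps were checked on simulated data.

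The members and lists were chosen with earlier results of these data known. Named genes were the 8 members, listed genes past 2-fold with up to 4 others of largest ratio, neighbours past 2-fold or beside a member, and the 3 nearest genes of 4 cytokine genes. Stat6, the Irf1 targets above 0 and single cell type markers were named for context. Alternatives were 3 scalings, 3 floors, an added constant, 2 choices of probe sets and 2 fold thresholds. Software was Python 3.11.15 with numpy 2.4.6, pandas 2.3.3 and statsmodels 0.14.6.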

Additional observations from a re-analysis of the deposited data

How the results depend on the processing

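The log2 ratios of Kif3a, Il4, Il13, Rad50, Irf1, Csf2 and Il3 moved by less than the SD between probe sets in every alternative run, from 1.70 to 1.82 for Il4, from 2.58 to 2.71 for Il13, from 1.37 to 1.49 for Csf2, from 0.38 to 0.51 for Il3 and from -1.26 to -1.17 for Irf1. That of Il5 was 8.36 with the floor at 112.8 and 8.48 with an added constant, since each lifts the dim signal of the IL-5- cells. Members at least 2-fold lower numbered 0 without probe sets ending in _s_at, _x_at or _a_at, which leaves Irf1 with no probe set, and 0 at 3-fold. Members higher numbered 3 at 3-fold and 4 otherwise. All named genes numbered 374 higher and 526 lower, against 1325 and 1572 with the lower floor (20th percentile), 2058 and 2314 without any floor, 183 and 226 with the higher one (60th), 1036 and 1563 at 1.5-fold, and 91 and 143 at 3-fold. The members' median log2 ratio was 1.41 without suffixed probe sets. Array median scaling gave 435 higher and 443 lower (49.5% of calls higher, against 41.6% as reported), so the excess of lower calls depends on the scaling. The receptor list's median was -0.64 with the lower floor, -0.82 with none and -0.40 with an added constant, and that of the kinesin-2 genes was 0.21 without the suffixed probe sets. Of the genes past 2-fold, Irf8 and Tapbp came under it with array median scaling and with the median of probe sets, Rint1 with that median and with an added constant, Gdf9 with the higher floor and the added constant, and Ighm (-0.64) with the median of probe sets and without suffixed ones. Hdc ranged from 1.65 with the higher floor to 5.08 without one, and was 2.49 with the median of probe sets. No paired analysis was possible because each group has 1 array. Signals near background and near the top of the range limit what can be read from Il5, the receptors and Il3.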
